A study of Saccharomyces cerevisiae with 14 samples.

Results

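The transcript levels of lager yeast 80 h after pitching, when yeast is added to the wort, were set against those at 60 h in the same brewery fermentation. The 6 arrays of this comparison, 3 of 80 h and 3 of 60 h, were taken by the sampling time in their titles from the 14 arrays of the series, which also covers 8, 30 and 102 h. Every array carried biotin-labelled total RNA of strain CB11 on a single-colour Affymetrix yeast array. Both times share the strain, a full-scale cylindroconical vessel, a malt wort with sugar adjunct and added zinc, oxygenated before the vessel was filled, and yeast that had already served in earlier fermentations. The labels name 1 vessel and do not state that replicates are separate cultures, so p-values here reflect the spread of these samples alone, and that spread may be technical. Lager yeasts are hybrids of Saccharomyces cerevisiae and a related species, so a probe set designed for S. cerevisiae may read transcripts of both parents, and only such probe sets were tested. The title of the series names carbohydrate metabolism as its subject.

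In wort, brewing yeast takes up glucose and fructose before maltose and maltotriose, and it forms ethanol while growth slows and oxygen is absent. As glucose runs out, the kinase Snf1 relieves the repression of genes for other carbon sources, gluconeogenesis among them, while nutrient signals through Ras and protein kinase A and through TORC1 set the output of ribosome genes. Without oxygen, yeast cannot make sterols or unsaturated fatty acids, and it depends on stores or on uptake.

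The RNA of the 60 h arrays was uneven. The arrays read 6 control transcripts both near their 5′ and near their 3′ end, and the ratio of these signals falls when labelled RNA lacks 5′ sequence. Its mean on the log2 scale was -0.45, -0.55 and -0.69 on the 80 h arrays, against -4.08, -1.66 and -0.68 on 60 h replicates 1, 2 and 3. For actin, ACT1, the deposited 5′ signal was 3138, 3426 and 3061 on the 80 h arrays, against 102, 1644 and 4214 at 60 h. For 18S ribosomal RNA it was 5394, 3496 and 6515 at 80 h, against 120.3, 186 and 8867 at 60 h. Replicates 1 and 2 of 60 h thus had low 5′ signal and replicate 3 did not. Replicate 3 of 60 h correlated with the 80 h arrays at 0.964 to 0.967 across the tested probe sets, which are no replicates, and replicate 1 at 0.889 to 0.901. The median standard deviation of a probe set was 0.113 (log2) over the 80 h arrays and 0.299 over the 60 h arrays. Changes are log2 differences of 80 h minus 60 h with the standard error of the fit after ±, and most are given also from a fit in which 60 h rests on replicate 3 alone, called here the replicate 3 value. That fit left out 3 arrays of low 5′ signal, which are 60 h replicates 1 and 2 and 8 h replicate 1, and it assumed for the lone array the spread of the other times.

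**Figure D1:**
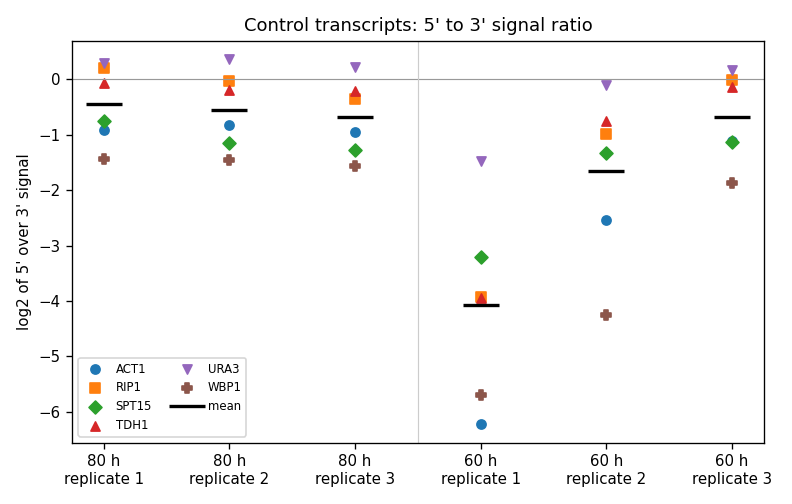
Log2 ratio of 5′ to 3′ signal for 6 control transcripts (symbols) and their mean (black bars) on each 80 h and 60 h array. The means of 60 h replicates 1 and 2 were -4.08 and -1.66, below all other arrays shown, and replicate 3 at -0.68 lay among the 80 h arrays.

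Of 5338 probe sets tested, covering 5298 genes, 503 (9.42%) were higher at 80 h than at 60 h and 582 (10.9%) were lower, at an adjusted p under 0.05 in limma. A bulk signal is relative to all RNA of a sample, so fewer cells with a transcript and less of it per cell cannot be told apart. Among them 139 rose and 58 fell by at least 2-fold. The replicate 3 fit called 610 (11.4%) higher and 605 (11.3%) lower. A call was taken to hold on replicate 3 when it passed in both fits with the same sign and replicate 3 lay outside the 80 h arrays on that side. This was so for 352 higher probe sets (6.59% of those tested) and 369 lower ones (6.91%), and 151 and 213 calls did not hold. No call turned to a call of the other direction, and replicate 3 lay on the called side of every 80 h array in 492 of the 503 rises and 581 of the 582 falls. Replicate 3 was itself among the arrays behind these calls, and both fits share the 80 h arrays. These counts are therefore no independent check of the calls. Without regard to a test, the arrays of the 2 times did not overlap for 915 probe sets (17.1%) that were higher at 80 h and 1138 (21.3%) that were lower. Of the calls, 489 and 573 were among these. Replicate 3 was the 60 h array nearest to the 80 h mean in 273 of the 503 rises and 344 of the 582 falls, and in 46.9% of all probe sets tested.

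The number of calls depended on the arrays and the scale. Whether a call held on replicate 3 also depended on leaving out 8 h replicate 1, an array outside this comparison. When 60 h rested on replicate 3 but 8 h replicate 1 stayed in, 250 probe sets were higher and 243 lower, of which 171 and 189 were also called with all arrays. On the authors' scale as deposited, the median change of all probe sets was 0.25, against -0.04 after quantile normalization, a shift of 0.29. On that scale 86.5% of the calls were higher (1124 higher and 176 lower), against 46.4% here and 42.5% where arrays were centred on the median of S. cerevisiae probe sets. Changes are given relative to the quantile normalized arrays. Of the 52 gene lists, 14 had a median of the other sign on the authors' scale and 7 after centring. The direction with more calls changed in 10 lists on the authors' scale, and in 2 after centring. In every one of the 30 alternatives that tested them, 102 probe sets stayed higher and 103 lower. Leaving out a single array moved the number of calls in at least 1 direction by over 1.5 times in 47 of 52 gene lists. Where arrays are named below as left out, each was left out on its own, and the p given is the highest among the fits without 1 array.

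**Figure D2:**
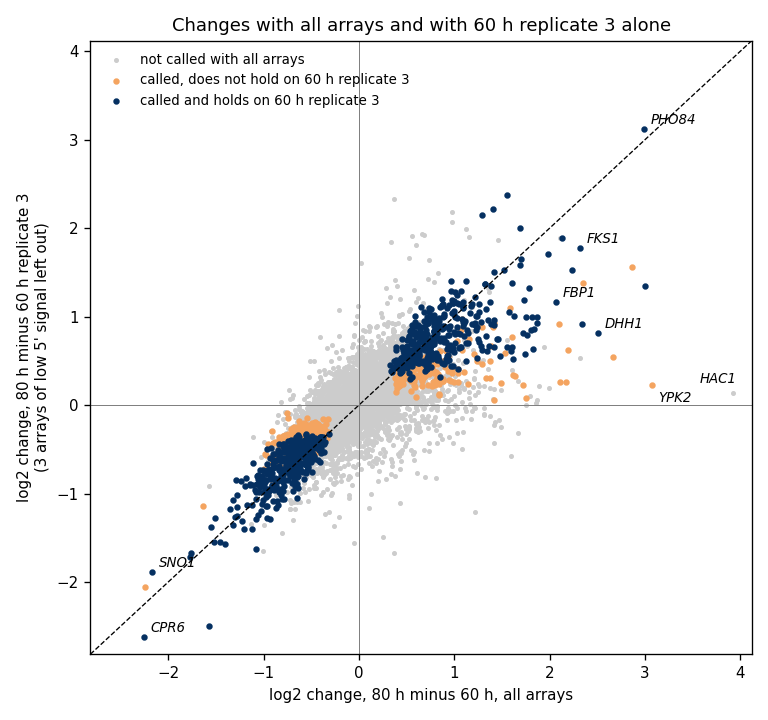
Log2 change between 80 h and 60 h for each of 5338 probe sets, from all arrays (horizontal axis) and from the fit in which 60 h rests on replicate 3 (vertical axis), with the line of equality dashed. Dark points are the 721 calls that hold on replicate 3, orange points are calls that do not, and grey points were not called. PHO84 and CPR6 lie near the line, while HAC1 and YPK2 lie far to the right with replicate 3 values of 0.14 and 0.23.

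The largest rises that held on replicate 3 came from genes of varied roles. PHO84, the high-affinity phosphate transporter of the plasma membrane, had normalized signals of 456, 478 and 631 at 80 h, against 72.3, 64.4 and 59.3 at 60 h. All 80 h arrays lay far above all 60 h arrays, and replicate 3 was the lowest of the 60 h arrays. The rise was 7.93-fold (log2 2.99 ± 0.18, limma adjusted p = 1.9e-06, with 3.12 on replicate 3), and it passed in all 30 alternatives. FKS1, the main catalytic subunit of beta-1,3-glucan synthase, had 2655, 2379.8 and 2185 at 80 h, against 281, 571 and 702 at 60 h. The groups were clearly apart, with 60 h replicate 3 closest to 80 h, and the rise was 2.31 ± 0.30 (adjusted p = 0.00041, replicate 3 value 1.77). MNN4, a regulator of mannosylphosphate addition to wall mannoproteins, had 1776, 1868 and 1999.7 at 80 h, against 362, 434 and 506 at 60 h, a rise of 2.13 ± 0.20 (adjusted p = 6.1e-05, replicate 3 value 1.89). DBP2, an RNA helicase with roles in ribosome formation and RNA decay, had 694, 621 and 541 at 80 h, against 124, 160.4 and 189 at 60 h. Its rise was 1.99 ± 0.19 (adjusted p = 6.1e-05, replicate 3 value 1.71), and FKS1, MNN4 and DBP2 passed in all 30 alternatives.

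Other leading rises were more uneven among the 60 h arrays. DHH1, an RNA helicase that promotes mRNA decapping, had 409.7, 386 and 381 at 80 h, against 23.2, 63.8 and 223 at 60 h. All 60 h arrays were below 80 h, but replicate 1 was far below replicate 3, and the rise was 2.50 ± 0.65 (adjusted p = 0.016, replicate 3 value 0.81). VAM7, a vacuolar SNARE, had 216, 219 and 327 at 80 h, against 27.0, 33.4 and 132 at 60 h, again with replicate 3 nearest to 80 h, and rose by 2.34 ± 0.56 (adjusted p = 0.011, replicate 3 value 0.91). KRE6, a protein needed for beta-1,6-glucan, had 867, 925 and 847 at 80 h, against 109, 281 and 485 at 60 h. SUR1, a mannosyltransferase of sphingolipid synthesis, had 2155, 2130.2 and 1955 at 80 h, against 275, 668 and 1154 at 60 h. In both genes replicate 1 of 60 h was the lowest array and replicate 3 the one nearest to 80 h, and the rises were 1.84 ± 0.46 for KRE6 and 1.80 ± 0.52 for SUR1, against 0.86 and 0.85 on replicate 3. COS10, a membrane protein of the subtelomeric COS family, had 192, 151 and 127 at 80 h, against 18.6, 6.34 and 60.5 at 60 h. It was above background on 1 of the 60 h arrays, replicate 3, where the rise was 1.35, against 3.00 ± 0.67 with all arrays. YHK8, a putative drug transporter, rose by 1.86 ± 0.37 (adjusted p = 0.0044, replicate 3 value 0.93). The uncharacterized frame YMR315W-A rose by 2.24 ± 0.47 (adjusted p = 0.0058, replicate 3 value 1.53), and the retrotransposon frame YBL100W-A, read by a shared probe set, by 1.82 ± 0.38 (adjusted p = 0.0058, replicate 3 value 1.00). DHH1 lost the call without 60 h replicate 2 or 80 h replicate 1 or 2 (adjusted p up to 0.055), and VAM7 without 60 h replicate 2 (up to 0.0502). KRE6 lost the call without 80 h replicate 2 (adjusted p up to 0.053), and SUR1 without 60 h replicate 1 or 2 or any 80 h array (up to 0.079). DHH1 stood at 1.72 without 60 h replicate 1 and 3.35 without 60 h replicate 3, VAM7 stood at 3.05 without 60 h replicate 3, KRE6 stood at 1.25 without 60 h replicate 1, COS10 stood at 2.20 without 60 h replicate 2 and 3.83 without 60 h replicate 3.

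The largest falls that held included genes of chaperones, vitamin B6 synthesis and glycine cleavage. CPR6, a cyclophilin that works with Hsp90, had 261, 301 and 285 at 80 h, against 962, 1460.5 and 1731 at 60 h. The 2 groups lay far apart, and the fall was 4.77-fold (log2 -2.25 ± 0.21, adjusted p = 6.1e-05), with -2.62 on replicate 3. HSP82, the stress-induced Hsp90, had 1469, 1568 and 1519 at 80 h, against 4163, 4476 and 4426 at 60 h, and HSC82, the constitutive Hsp90, had 1466, 1521 and 1565 at 80 h, against 3483, 4100.0 and 4503 at 60 h. The arrays within each time were close together for both, and the changes were -1.52 ± 0.15 and -1.40 ± 0.14 (adjusted p = 7.4e-05 and 9.6e-05), with -1.54 and -1.57 on replicate 3. SSA4, a stress-induced Hsp70, had 161, 167 and 179.6 at 80 h, against 604, 577 and 557 at 60 h, a change of -1.78 ± 0.21 (adjusted p = 0.00021, replicate 3 value -1.72). SNO1, of vitamin B6 synthesis, had 122, 104 and 155 at 80 h, against 694, 555 and 462 at 60 h. It changed by -2.17 ± 0.26 (adjusted p = 0.0003, replicate 3 value -1.88). GCV2, the glycine decarboxylase of the glycine cleavage complex, had 1545, 1699 and 2212 at 80 h, against 6057, 6512 and 5729.7 at 60 h, a change of -1.76 ± 0.15 (adjusted p = 2.8e-05, replicate 3 value -1.67). Each of these 6 genes fell in all 30 alternatives.

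Further falls past the test and on replicate 3 came from varied roles. CUP1-1, a copper-binding metallothionein read by a shared probe set that may also take signal of its tandem copy, had 2328, 2508 and 2180.2 at 80 h, against 7761, 6683 and 5657 at 60 h, a change of -1.51 ± 0.22 (adjusted p = 0.00084, replicate 3 value -1.28). BNA6, of NAD synthesis, changed by -1.35 ± 0.17 (adjusted p = 0.00034, replicate 3 value -1.17), and MTD1, a methylenetetrahydrofolate dehydrogenase, by -1.30 ± 0.20 (adjusted p = 0.0011, replicate 3 value -1.26). MGR2, of the mitochondrial import machinery, changed by -1.46 ± 0.22 (adjusted p = 0.00091, replicate 3 value -1.55), and YFH1, frataxin of iron-sulphur cluster assembly, by -1.28 ± 0.19 (adjusted p = 0.00079, replicate 3 value -0.84). XYL2, annotated as xylitol dehydrogenase, changed by -1.32 ± 0.13 (adjusted p = 7.4e-05, replicate 3 value -1.35), and ERI1, of glycosylphosphatidylinositol anchor synthesis, by -1.32 ± 0.21 (adjusted p = 0.0013, replicate 3 value -1.07). These 7 genes kept their call in every alternative that tested them, except ERI1 with array quality weights. BTN2, a factor that sorts misfolded proteins, had 85.1, 90.1 and 80.8 at 80 h, against 371, 189 and 222 at 60 h, a change of -1.55 ± 0.38 (adjusted p = 0.013, replicate 3 value -1.38), and passed in 28 of 30 alternatives.

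**Figure D3:**
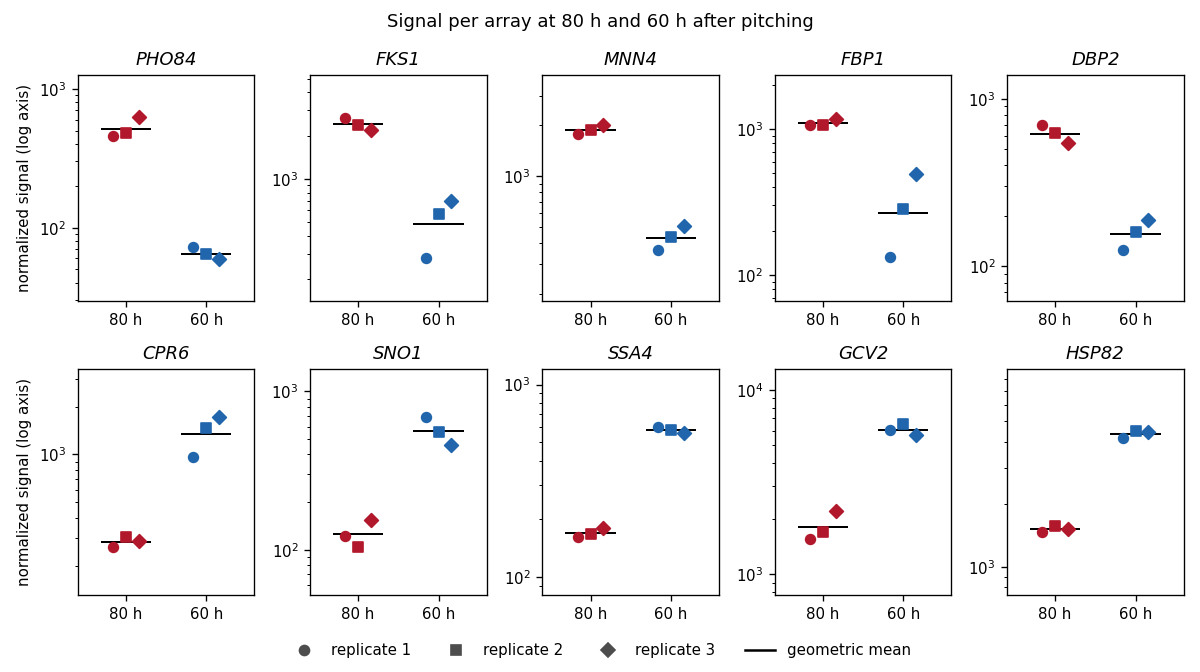
Normalized signal (log axis) of 5 leading rises (top) and 5 leading falls (bottom), with 80 h left of 60 h, a symbol per replicate and the geometric mean as a bar. The groups do not overlap in any panel, and FBP1 shows the widest spread at 60 h, 1066, 1067 and 1184 at 80 h, against 133, 283 and 493 at 60 h.

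Genes for making ribosomes were higher at 80 h. Of 128 cytosolic ribosomal protein genes, 61 rose and none fell, with a median change of 0.53 against -0.04 for all probe sets, and 56 of the rises held. The replicate 3 fit called 98 higher and none lower, with a median of 0.72. RPS24B, of the small subunit, had 3489, 3779 and 3582 at 80 h, against 1199, 1563 and 1426 at 60 h. The groups were well apart, and the rise was 1.38 ± 0.16 (adjusted p = 0.00017, replicate 3 value 1.34). RPS0B, also of the small subunit, had 1656, 1639.8 and 1470.2 at 80 h, against 243, 817 and 768 at 60 h, with 60 h replicate 1 far below the other arrays, and rose by 1.57 ± 0.42 (adjusted p = 0.019, replicate 3 value 1.05). RPS8B rose by 1.55 ± 0.47 (adjusted p = 0.035, replicate 3 value 0.65), and RPS14B by 1.28 ± 0.29 (adjusted p = 0.009, replicate 3 value 0.94). RPL3, of the large subunit, had 3409, 3531 and 3075 at 80 h, against 822, 1999.7 and 2593 at 60 h. It rose by 1.04 ± 0.35 (adjusted p = 0.049), but the replicate 3 value was 0.36 (adjusted p = 0.22). Most ribosomal proteins are encoded by near-identical gene pairs, and a probe set may read both copies. RPS0B lost the call without 80 h replicate 1 or 2 (adjusted p up to 0.065), and RPS8B without 60 h replicate 1 or 2, any 80 h array or 102 h replicate 2 (up to 0.097). RPL3 lost the call without 8 h replicate 2 or 3, any 30 h array, 60 h replicate 1 or 2, any 80 h array or any 102 h array (adjusted p up to 0.13). RPS8B stood at 0.92 without 60 h replicate 1.

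The factors that assemble ribosomes moved the same way. Of 52 genes for large subunit assembly, 25 rose and 1 fell, with a median of 0.43, and 19 rises held. Of 49 genes of the small subunit processome, which cleaves and folds the 18S rRNA precursor, 15 rose and none fell, with a median of 0.40, and 10 rises held. NOG1, a GTPase of large subunit maturation, had 1078, 1091 and 979 at 80 h, against 369, 471 and 520.0 at 60 h, with the groups apart, a rise of 1.22 ± 0.17 (adjusted p = 0.00054, replicate 3 value 1.01). RSA4, of late large subunit maturation, rose by 1.76 ± 0.36 (adjusted p = 0.0051, replicate 3 value 0.79), and TIF6, which keeps the immature large subunit from joining, by 1.42 ± 0.41 (adjusted p = 0.029, replicate 3 value 0.96). RRP5, needed for the maturation of both subunits, had 767, 873 and 930.1 at 80 h, against 337, 355 and 486 at 60 h, a rise of 1.14 ± 0.15 (adjusted p = 0.0004, replicate 3 value 0.81). NOP58 and NOP56, core proteins of box C/D snoRNPs, rose by 1.23 ± 0.28 (adjusted p = 0.0082, replicate 3 value 0.88) and by 1.10 ± 0.17 (adjusted p = 0.0012, replicate 3 value 0.89). In the processome the helicase ECM16 rose by 0.97 ± 0.23 (adjusted p = 0.01, replicate 3 value 0.37) and UTP10 by 0.67 ± 0.19 (adjusted p = 0.027, replicate 3 value 0.30), and neither held. NOP1, the rRNA methyltransferase fibrillarin, stood at 0.63 ± 0.24 (adjusted p = 0.074). TIF6 lost the call without 60 h replicate 1 or 2 or any 80 h array (adjusted p up to 0.087), and UTP10 without 60 h replicate 1 or any 80 h array (up to 0.099).

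Among 23 genes for RNA polymerases I and III, 6 rose and none fell, all 6 held, and the median was 0.10, against 0.48 in the replicate 3 fit, which called 12 higher and 1 lower. RPA190, the largest polymerase I subunit, had 1489, 1515 and 1418 at 80 h, against 491, 764 and 816 at 60 h. No 60 h array reached an 80 h array, and the rise was 1.13 ± 0.20 (adjusted p = 0.0021, replicate 3 value 0.85). RPA135, the second largest, rose by 1.01 ± 0.16 (adjusted p = 0.0012, replicate 3 value 0.99), RPA34 by 0.87 ± 0.20 (adjusted p = 0.0087, replicate 3 value 1.13), and RPB5, shared by all nuclear polymerases, by 0.99 ± 0.19 (adjusted p = 0.0034, replicate 3 value 1.06). Of 31 translation factors 3 rose (YEF3, elongation factor 3, at 0.55) and 4 fell (SUI2, eIF2 alpha, at -0.65), all of which held. These shares are near the 9.42% of all probe sets that rose and the 10.9% that fell. The median of translation factors was 0.12, and -0.01 with centred arrays, and on the authors' scale 9 were higher and none lower. With array quality weights none was higher and 2 were lower. Of 20 cytosolic tRNA synthetases 2 rose and 2 fell, again near the shares of all probe sets. TYS1 stood at -0.85 and KRS1 at 0.58, and the list had a median of 0.01 that was -0.05 with centred arrays. The medians for ribosomal proteins, both assembly lists and polymerases I and III were positive on the authors' scale (0.49 to 0.76) and with centred arrays (0.18 to 0.45). The count of risen ribosomal protein genes was 35 without 80 h replicate 1 and 33 without 80 h replicate 2. For large subunit assembly it was 12 and 10 without these arrays, 14 without 80 h replicate 3 and 13 without 60 h replicate 2, and for the processome it was 8 without 80 h replicate 2. With array quality weights the rises numbered 60 for ribosomal proteins, 11 for large subunit assembly and 7 for the processome. Ribosomal protein genes had a median 0.46 higher on 60 h replicate 1 than on replicate 3. YEF3 lost the call without 60 h replicate 1 or any 80 h array (adjusted p up to 0.08), and SUI2 without 60 h replicate 2 or 80 h replicate 2 or 3 (up to 0.089).

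Chaperone genes were lower at 80 h. Of 28 genes for chaperones under heat shock factor, 15 fell and 1 rose, with a median of -0.59, and 12 of the falls held. CPR6, SSA4, HSP82, HSC82 and BTN2, given above, were among them. The list also counts HSF1, the gene of heat shock factor itself, among the falls that held (-0.83 ± 0.13, replicate 3 value -0.74). SSA2, a constitutive Hsp70, had 160.2, 256 and 130.0 at 80 h, against 1024, 759.9 and 726 at 60 h. All 80 h arrays lay below all 60 h arrays and the change was -2.24 ± 0.52 (adjusted p = 0.0097), but the replicate 3 value of -2.06 had an adjusted p of 0.061. In the endoplasmic reticulum, KAR2, the Hsp70 of that compartment, had 1406, 1382 and 1366 at 80 h, against 3131, 2897 and 3041 at 60 h. The groups did not overlap, and the change was -1.13 ± 0.12 (adjusted p = 0.00011, replicate 3 value -1.14). MPD2, a disulphide isomerase, fell by 2.21-fold (-0.90 on replicate 3), and PDI1, the main such enzyme, changed by -0.37 ± 0.11 (adjusted p = 0.033, replicate 3 value -0.53). IRE1, the sensor of the unfolded protein response, rose by 0.75 ± 0.11 (adjusted p = 0.001, replicate 3 value 0.63), so that 3 of 19 genes of this list fell and 1 rose, with a median of -0.16. Of all probe sets 10.9% fell and 9.42% rose. On the authors' scale 6 of the 19 genes rose and 2 fell, and the median was 0.17. PDI1 lost the call without 60 h replicate 2 or 3, any 80 h array or 102 h replicate 2 or 3 (adjusted p up to 0.11).

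Proteasome genes fell with the chaperones. Of 34 genes, 22 fell and 1 rose, with a median of -0.59, and 20 falls and the rise held. UMP1, a chaperone of proteasome assembly, had 1964, 1805 and 1794 at 80 h, against 5571, 4399.7 and 3372 at 60 h, with the 60 h arrays all higher, a change of -1.23 ± 0.18 (adjusted p = 0.00075, replicate 3 value -0.86). PUP2, a subunit of the core particle, had 850.3, 813 and 759.9 at 80 h, against 1568, 1608 and 1699 at 60 h, a change of -1.01 ± 0.11 (adjusted p = 0.00011, replicate 3 value -1.07). RPN6, a lid subunit of the regulatory particle, changed by -1.11 ± 0.15 (adjusted p = 0.00044, replicate 3 value -0.90), and RPN12 by -0.94 ± 0.16 (adjusted p = 0.0021, replicate 3 value -0.72). The single rise, chosen after its value was seen, was RPN4, the transcription factor of proteasome genes, at 0.43. The medians of both lists stayed negative on the authors' scale (-0.39 for each) and with centred arrays (-0.70 each), and their median difference between 60 h replicates 1 and 3 was -0.02 for chaperones and 0.05 for the proteasome.

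General stress genes were called in both directions. Of all probe sets 10.9% fell and 9.42% rose. Of 41 genes under Msn2 and Msn4, 7 fell and 3 rose, all of which held, with a median of -0.09 (-0.45 with centred arrays, -0.14 on the authors' scale). SSA4, HSP42, a small heat shock protein (-0.91 ± 0.14, adjusted p = 0.0011, replicate 3 value -0.92), and SOL4, of the pentose phosphate pathway (-1.08 ± 0.15, adjusted p = 0.00054, replicate 3 value -0.99), fell, and RTN2, a reticulon, rose by 0.77 ± 0.20 (adjusted p = 0.017, replicate 3 value 0.97). HSP12, a membrane-associated stress protein, had 10246, 11082 and 10764 at 80 h, against 11558, 11082 and 11558 at 60 h, and HSP104, a disaggregase, had 1547, 1557 and 1863 at 80 h, against 1492, 1533 and 1787 at 60 h. For both, the groups overlapped. HSP26 stood at 0.83 ± 0.42 (adjusted p = 0.18) and CTT1, cytosolic catalase, at -0.07 ± 0.11 (adjusted p = 0.67). Of 29 genes of oxidative defence 3 fell and none rose, close to the 10.9% of all probe sets that fell, among them AHP1, a peroxiredoxin (-0.51 ± 0.11, adjusted p = 0.0056, replicate 3 value -0.53), and TRX3, mitochondrial thioredoxin (-0.81 ± 0.19, adjusted p = 0.009, replicate 3 value -0.61). SOD2, mitochondrial superoxide dismutase, stood at 0.18 with all arrays and at -0.42 on replicate 3 (adjusted p = 0.018). The falls in oxidative defence numbered 6 without 30 h replicate 1, 30 h replicate 2 or 60 h replicate 1, and 8 without 60 h replicate 3. RTN2 lost the call without any 80 h array (adjusted p up to 0.058).

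Genes of purine synthesis fell. Of 16 genes of purine synthesis 11 fell and all 11 held, with a median of -0.72 (-0.87 with centred arrays, -0.56 on the authors' scale). The exception was IMD4, an IMP dehydrogenase of the guanine branch, which rose by 0.50 ± 0.15 (adjusted p = 0.033, replicate 3 value 0.65). ADE4, the amidotransferase that opens the pathway, had 242, 258 and 316 at 80 h, against 565, 605 and 716 at 60 h. Its groups were far apart, and the change was -1.21 ± 0.13 (adjusted p = 0.00014, replicate 3 value -1.41). ADE2, the carboxylase, had 1568, 1735 and 2254 at 80 h, against 2916, 4447 and 4849 at 60 h, a change of -1.12 ± 0.18 (adjusted p = 0.0015, replicate 3 value -1.41). ADE17, of the last steps, had 3365, 3497 and 4484 at 80 h, against 7652, 6596 and 6035 at 60 h, a change of -0.84 ± 0.14 (adjusted p = 0.0014, replicate 3 value -0.69), and ADE1, ADE3, ADE6, ADE12, ADE13 and GUA1 fell by between 0.40 and 0.95 on the log2 scale. SHM2, cytosolic serine hydroxymethyltransferase which feeds carbon units to the pathway, had 3439.6, 3891 and 4534 at 80 h, against 6683, 8694 and 7607 at 60 h, a change of -0.95 ± 0.12 (adjusted p = 0.00041, replicate 3 value -0.95). ADE8, the glycinamide ribonucleotide transformylase, was uneven at 60 h, with 1390.2, 1381 and 1616 at 80 h, against 854, 1852 and 2172 at 60 h. It stood at -0.05 with all arrays and at -0.57 on replicate 3 (adjusted p = 0.0029). IMD4 lost the call without 60 h replicate 2 or 3 or any 80 h array (adjusted p up to 0.11).

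Amino acid and vitamin synthesis moved in part with the purine genes. Of 62 genes of amino acid synthesis 15 fell and 4 rose, of which 11 and 2 held, with a median of -0.19. The median turned to 0.11 on the authors' scale, where 8 fell and 7 rose. SER1 and SER2, of serine synthesis, changed by -1.07 ± 0.15 (adjusted p = 0.00073, replicate 3 value -0.89), and by -1.23 ± 0.21 (adjusted p = 0.0021, replicate 3 value -1.31). HIS7, of histidine synthesis, changed by -1.18 ± 0.16 (adjusted p = 0.00044, replicate 3 value -1.12). ARG1, argininosuccinate synthetase, had 772, 798 and 734 at 80 h, against 1217, 1891 and 1871 at 60 h. Its arrays did not overlap, and it changed by -1.08 ± 0.20 (adjusted p = 0.0034, replicate 3 value -1.28). These 4 genes fell in all 30 alternatives. MET17, of sulphide assimilation, stood at -0.54 ± 0.21 (adjusted p = 0.09) and -0.05 on replicate 3. Of 15 genes for thiamine and vitamin B6, 6 fell and 4 held, with a median of -0.48, and the number of falls was 3 without either 80 h replicate 1 or 80 h replicate 2. SNZ1, the vitamin B6 partner of SNO1, had 1611, 1733 and 2122 at 80 h, against 2857, 4342 and 3927 at 60 h, a change of -1.01 ± 0.19 (adjusted p = 0.0036, replicate 3 value -1.12). THI13, of thiamine precursor synthesis and read by a shared probe set, had 873, 869 and 885 at 80 h, against 1751, 2119 and 1541 at 60 h, a change of -1.03 ± 0.18 (adjusted p = 0.0021, replicate 3 value -0.82).

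Cell wall and permease genes that changed were higher at 80 h, and both lists were also low on 60 h replicate 1. Of 33 genes for wall glucan, chitin and wall proteins 9 rose and none fell, and 8 held. The median was 0.64, against 0.26 in the replicate 3 fit, which called 10 higher and 1 lower. Their median signal was 0.81 lower (log2) on 60 h replicate 1 than on replicate 3, and the part of the low 5′ signal in this was not tested. FKS1 and KRE6 are given above. PST1, a wall protein linked to integrity signalling, had 3082, 3146 and 3497 at 80 h, against 855, 1086 and 1078 at 60 h. The groups were well apart, and the rise was 1.69 ± 0.18 (adjusted p = 0.0001, replicate 3 value 1.59). CWP1, a wall mannoprotein, had 639, 807 and 626 at 80 h, against 173, 343 and 373 at 60 h. It rose by 1.29 ± 0.40 (adjusted p = 0.037) but did not hold, with 0.88 on replicate 3 (adjusted p = 0.13). Without 80 h replicate 2, 4 genes of the list rose, and without 8 h replicate 1, 14 did. Of 23 amino acid and peptide permeases 8 rose and none fell, and 5 held, with a median of 0.68 against 0.29 on replicate 3. They were 1.06 lower in median on 60 h replicate 1 than on replicate 3. GNP1, the high-affinity glutamine permease, had 1123, 1190.2 and 1145 at 80 h, against 146, 316 and 743 at 60 h, a rise of 1.82 ± 0.49 (adjusted p = 0.019, replicate 3 value 0.63). BAP2, for branched-chain amino acids, had 560.3, 512 and 507 at 80 h, against 90.9, 123 and 352 at 60 h. Its rise was 1.74 ± 0.36 (adjusted p = 0.0059, replicate 3 value 0.58). TAT1, for tyrosine and tryptophan, had 1487, 1599.7 and 1324 at 80 h, against 575, 947 and 897 at 60 h, a rise of 0.90 ± 0.18 (adjusted p = 0.005, replicate 3 value 0.71) that passed in all 30 alternatives. DIP5, for acidic amino acids, rose by 1.00 ± 0.27 (adjusted p = 0.019, replicate 3 value 0.60), and MUP1, for methionine, by 0.46 ± 0.15 (adjusted p = 0.043, replicate 3 value 0.62). BAP3, AGP2 and OPT2 rose without holding, and GAP1, the general permease under nitrogen control, stood at 0.48 ± 0.34 with overlapping arrays. AGP1 and PUT4 were not called, at 0.68 and 0.35, but stood at -0.51 and -0.64 on replicate 3 (adjusted p = 0.018 and 0.012). Leaving out 80 h replicate 1 or 2 left 2 permeases risen, leaving out 60 h replicate 1 or 80 h replicate 3 left 4, and leaving out 102 h replicate 3 left 5. With array quality weights 2 permeases and 6 wall genes rose. CWP1 lost the call without 60 h replicate 1 or 2, any 80 h array or 102 h replicate 2 or 3 (adjusted p up to 0.12), and GNP1 without 60 h replicate 2 or any 80 h array (up to 0.064). DIP5 lost the call without 80 h replicate 1 or 2 (adjusted p up to 0.074), and MUP1 without 8 h replicate 3, 60 h replicate 1 or 3, any 80 h array or any 102 h array (up to 0.13). GNP1 stood at 2.42 without 60 h replicate 3.

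Mineral nutrient genes rose singly. Besides PHO84, the low-affinity phosphate transporter PHO90 rose by 0.84 ± 0.19 (adjusted p = 0.0098, replicate 3 value 0.51), PHO86, needed for PHO84 to leave the endoplasmic reticulum, by 0.44 ± 0.13 (adjusted p = 0.03, replicate 3 value 0.50), and PHO80, the cyclin that represses the pathway, by 0.56 ± 0.14 (adjusted p = 0.014, replicate 3 value 0.83). PHO91 rose without holding, and with it 5 of 19 phosphate genes rose and none fell, with a median of 0.10. Without 80 h replicate 1 or 2, 2 phosphate genes rose, and without 80 h replicate 3, 3 did. PHO84 had geometric mean signals of 37.2, 39.8, 65.1, 516 and 1133 at the 5 times in order. Among 12 zinc genes 4 rose, none fell and all 4 held, with a median of 0.14 (-0.06 with centred arrays). IZH2, a membrane receptor protein of zinc homeostasis, had 4561, 4437 and 4519 at 80 h, against 2428, 2405 and 2019 at 60 h. Its 80 h arrays were nearly equal, all above 60 h, and it rose by 0.99 ± 0.12 (adjusted p = 0.00029, replicate 3 value 1.16). Its relatives IZH4 and IZH3 rose by 0.98 ± 0.16 (adjusted p = 0.0015, replicate 3 value 1.19), and by 1.72 ± 0.36 (adjusted p = 0.006, replicate 3 value 0.81), and ZRC1, which moves zinc into the vacuole, by 0.48 ± 0.14 (adjusted p = 0.033, replicate 3 value 0.46). ZRT1, the high-affinity zinc transporter, had 6809, 6567 and 6293 at 80 h, against 6717, 6342 and 6455 at 60 h, a change of 0.01 ± 0.10. Of 24 iron genes 3 rose (FTR1 at 0.96, FET4 at 0.75, ISU2 at 0.56), all held and none fell. Of 33 genes of sulphate assimilation and the methionine cycle 3 rose (MET2 at 0.75, CYS4 at 0.75, MUP1), all held and none fell. The counts for iron and sulphate genes are near the 9.42% of all probe sets that rose. The sulphate list had a median of -0.04, and 0.26 on the authors' scale, where 8 rose. Of 27 genes under nitrogen catabolite repression 3 fell, near the 10.9% of all probe sets, and 1 rose, with falls that held in GAT1, a nitrogen activator (-1.01 ± 0.16, adjusted p = 0.0012, replicate 3 value -0.86), and UGA1, of GABA use (-0.71 ± 0.15, adjusted p = 0.0056, replicate 3 value -0.88). The median of the list was -0.09, but 0.22 on the authors' scale, where 1 fell and 2 rose. PHO86 lost the call without 60 h replicate 2 or 3 or any 80 h array (adjusted p up to 0.12), and PHO80 without 80 h replicate 1 or 2 (up to 0.061). ZRC1 lost the call without 60 h replicate 1 or 80 h replicate 1 or 2 (adjusted p up to 0.13), and CYS4 without 80 h replicate 2 or 3 (up to 0.076).

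Genes of gluconeogenesis and of the use of carbon sources other than sugars were called in both directions. FBP1, fructose-1,6-bisphosphatase of gluconeogenesis, had 1066, 1067 and 1184 at 80 h, against 133, 283 and 493 at 60 h. All 80 h arrays were higher, and the 60 h signal was lowest on replicate 1 and highest on replicate 3. The rise was 4.17-fold (log2 2.06 ± 0.39, adjusted p = 0.0034), and 1.16 on replicate 3. The call passed in 29 of 30 alternatives. PCK1, phosphoenolpyruvate carboxykinase, had 401, 412 and 409 at 80 h, against 261, 362 and 281 at 60 h, a rise of 0.45 ± 0.14 (adjusted p = 0.036, replicate 3 value 0.53). JEN1, the lactate and pyruvate permease, had 4604, 4561 and 4037 at 80 h, against 2491, 2030.2 and 2605 at 60 h. Its groups were well apart, with a rise of 0.90 ± 0.11 (adjusted p = 0.00034, replicate 3 value 0.75), past the test in all 30 alternatives. ADY2, of acetate uptake, and CIT2, peroxisomal citrate synthase, rose by 1.07 ± 0.26 and 0.47 ± 0.13 but did not hold. MLS1, malate synthase of the glyoxylate cycle, went the other way, with 1343, 1160.3 and 1288 at 80 h, against 2307, 2104 and 1733 at 60 h. It fell by 1.61-fold (log2 -0.69 ± 0.19, adjusted p = 0.024) without holding (-0.46 on replicate 3, adjusted p = 0.21), and on the authors' scale it was not called. ALD2, an aldehyde dehydrogenase, changed by -0.73 ± 0.23 (adjusted p = 0.04, replicate 3 value -0.41) and held. ALD2 was not called lower on the authors' scale or with array quality weights. ACS1, acetyl-CoA synthetase, had 2237, 2228 and 2401 at 80 h, against 2651, 4292 and 3855 at 60 h, with no overlap, but was not called (-0.62 ± 0.27, adjusted p = 0.11). ICL1, isocitrate lyase, MDH2, ADH2, ALD4 and SFC1 were not called either, at 0.06, 0.32, -0.07, -0.04 and -0.14. The list of 24 genes thus had 5 rises and 2 falls, with a median of 0.01. Of all probe sets 9.42% rose and 10.9% fell. Without 80 h replicate 1 or 2, 3 genes of the list rose. With array quality weights 2 of them rose and none fell. PCK1 lost the call without 60 h replicate 1 or 3, any 80 h array or 102 h replicate 1 or 2 (adjusted p up to 0.11), and CIT2 without 60 h replicate 2 or 80 h replicate 1 or 2 (up to 0.11). MLS1 lost the call without 60 h replicate 1 or 2 or any 80 h array (adjusted p up to 0.092), and ALD2 without 60 h replicate 1 or 2, any 80 h array or any 102 h array (up to 0.11).

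The activators of these genes were read as well. HAP4, the activating subunit of the Hap complex for respiratory genes, had 2778, 2670.3 and 2705 at 80 h, against 390.0, 940.0 and 1893 at 60 h. The 60 h arrays were spread over a wide range below the tight 80 h arrays, and the rise was 1.62 ± 0.46 (adjusted p = 0.025, replicate 3 value 0.52) and held. ADR1, the activator of ethanol and fatty acid use, had 654, 657 and 704 at 80 h, against 120.3, 295 and 507 at 60 h and stood at 1.36 ± 0.49 (adjusted p = 0.064). CAT8 and SIP4, activators of gluconeogenesis, stood at 0.01 and 0.11. SIP2 and GAL83, beta subunits of the Snf1 kinase, changed by -0.68 ± 0.17 (adjusted p = 0.016, replicate 3 value -0.50), and by -0.74 ± 0.18 (adjusted p = 0.011, replicate 3 value -0.74), and MIG1, a glucose repressor, by -0.43 ± 0.12 (adjusted p = 0.027, replicate 3 value -0.46). On the authors' scale none of these 3 genes was called lower. With array quality weights neither these 3 genes nor HAP4 kept the call. The 11 glucose sensors and repressors had 2 falls and no rise here, but 3 rises and no fall on the authors' scale. The 13 genes of Snf1 and its activators had 1 rise and 2 falls here, but 5 rises and no fall there. Of all probe sets 9.42% rose and 10.9% fell on the scale used here. HAP4 lost the call without 60 h replicate 1 or 2 or any 80 h array (adjusted p up to 0.072), and SIP2 without 60 h replicate 2 or 80 h replicate 2 or 3 (up to 0.065). MIG1 lost the call without 60 h replicate 2 or any 80 h array (adjusted p up to 0.09). HAP4 stood at 1.03 without 60 h replicate 1.

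Hexose transport and phosphorylation rose in single genes. HXT3, a low-affinity glucose transporter, had 196, 219.6 and 182 at 80 h, against 125, 116 and 104 at 60 h. The arrays did not overlap, and the rise was 0.79 ± 0.17 (adjusted p = 0.0064, replicate 3 value 0.93), past the test in all 30 alternatives. HXT17, read by a shared probe set, rose by 1.09 ± 0.30 (adjusted p = 0.021, replicate 3 value 1.17), and HXT11 changed by -0.86 ± 0.19 (adjusted p = 0.0075, replicate 3 value -0.62). The other 12 of 15 hexose transporters were not called. Of all probe sets 9.42% rose and 10.9% fell. HXT1, HXT2, HXT4 and HXT7 overlapped between the times, at 0.08, 0.22, 0.08 and 0.11, and HXT5, the transporter of slow growth, had 753, 721 and 805 at 80 h, against 1268, 1144 and 1048 at 60 h, lower throughout but not called (adjusted p = 0.088). HXK2, the hexokinase that also takes part in glucose repression, had 1192, 1135 and 1011 at 80 h, against 377, 636 and 673 at 60 h. It rose by 1.03 ± 0.32 (adjusted p = 0.035), without holding on replicate 3 (0.72, adjusted p = 0.18), and it was not called with centred arrays. It was the only call among 21 genes of glycolysis and ethanol formation, where the median was 0.06 here and -0.21 with centred arrays, which gave 2 falls and no rise. Of these genes, HXK1, GLK1, PDC1 and ADH1 stood at -0.02, 0.44, -0.11 and -0.03. In the maltose group MAL11, a transporter of maltose and other alpha-glucosides, had 611, 680.4 and 714 at 80 h, against 232, 441 and 478 at 60 h. It rose by 0.87 ± 0.25 (adjusted p = 0.029, replicate 3 value 0.48), which held. MAL13, an activator, rose by 1.04 ± 0.29 without holding (0.26 on replicate 3). MAL32, maltase, read by a shared probe set, had 5036, 5067 and 5047 at 80 h, against 7076, 6293 and 5641 at 60 h. It fell with a change of -0.32 ± 0.10 (adjusted p = 0.035) and did not hold. MAL31, IMA1 and SUC2, a maltose permease, isomaltase and invertase, stood at 0.21, 0.18 and 0.13, and none was called. With array quality weights HXT3 was the only gene called in the lists of hexose transport, glycolysis and maltose use. HXT17 lost the call without 60 h replicate 2 or 80 h replicate 1 or 2 (adjusted p up to 0.087), and HXK2 without 60 h replicate 1 or 2, any 80 h array or 102 h replicate 2 (up to 0.11). MAL11 lost the call without 60 h replicate 1 or any 80 h array (adjusted p up to 0.088), and MAL13 without 60 h replicate 1 or 2 or 80 h replicate 1 or 2 (up to 0.092). MAL32 lost the call without 60 h replicate 1 or 2, any 80 h array or any 102 h array (adjusted p up to 0.1).

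**Figure D4:**
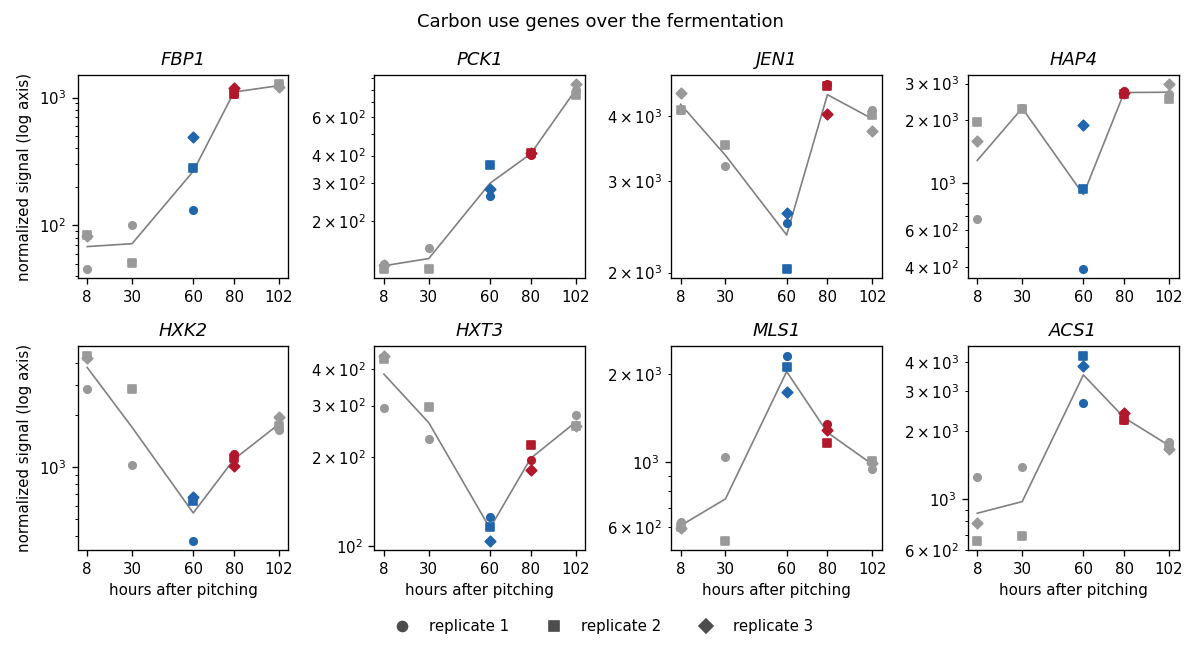
Normalized signal (log axis) of 8 carbon use genes on every array of 8, 30, 60, 80 and 102 h, with a symbol per replicate, 60 h in blue, 80 h in red and a line through the geometric means. FBP1 had means of 68.0, 71.7, 265, 1104 and 1240.2 at the 5 times in order, while MLS1 was highest at 60 h and HXT3 and HXK2 lowest there.

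The mitochondrial genes called with all arrays were lower at 80 h, but not all of these falls held. Of 16 genes of the tricarboxylic acid cycle 4 fell and none rose, of 40 respiratory chain and ATP synthase genes 6 fell and none rose, and of 73 mitochondrial ribosomal proteins 12 fell and none rose. The falls that held numbered 1, 3 and 6, shares near the 6.91% of all probe sets whose falls held. The medians were -0.22, -0.17 and -0.25 with all arrays, and -0.36, 0.03 and -0.10 in the replicate 3 fit. That fit called 6 genes of the cycle lower and none higher, 6 of the respiratory chain lower and 2 higher, and 15 mitochondrial ribosomal proteins lower and 1 higher. Named after their values were seen, the higher ones were CYC7, a form of cytochrome c, at 0.39 (adjusted p = 0.025), QCR10, of the cytochrome bc1 complex, at 0.35 (adjusted p = 0.032), and MRPL23 at 0.42 (adjusted p = 0.0088) in that fit. On 60 h replicate 1 the median signal (log2) was 0.44 lower than on replicate 3 for the cycle, but 0.28 higher for the respiratory chain and 0.34 higher for mitochondrial ribosomal proteins, and the part of the low 5′ signal in this was not tested. FUM1, fumarase, had 1272, 1323 and 1478 at 80 h, against 1754, 2972 and 2609 at 60 h. Its groups did not overlap, and it changed by -0.82 ± 0.16 (adjusted p = 0.0044, replicate 3 value -0.95). ATP5 and ATP7, of the ATP synthase stalk, changed by -0.64 ± 0.10 (adjusted p = 0.001, replicate 3 value -0.52), and by -0.96 ± 0.23 (adjusted p = 0.011, replicate 3 value -0.50). MRPL19 changed by -0.97 ± 0.19 (adjusted p = 0.0035, replicate 3 value -0.85). IDH2, isocitrate dehydrogenase, and ACO1, aconitase, fell without holding (-0.74 and -0.41). CIT1, SDH2 and COX5A stood at -0.15, 0.62 and 0.48 and were not called, and CYC1, cytochrome c, fell at -0.35 ± 0.11 without holding. SDH1 stood at 0.15 with all arrays and -0.63 on replicate 3 (adjusted p = 0.002), and MDH1 at 0.25 and -0.49 (adjusted p = 0.016). The mitochondrial ribosomal median turned to 0.05 on the authors' scale, with 3 higher and 2 lower. Without 80 h replicates 1, 2 or 3, the falls numbered 2, 2 and 2 in the tricarboxylic acid cycle, and 6, 6 and 5 among mitochondrial ribosomal proteins. Without 60 h replicate 2 there were 2 in the cycle and 3 in the respiratory chain, where leaving out 80 h replicate 1 or 2 left 2 and 3. IDH2 lost the call without 80 h replicate 3 (adjusted p up to 0.053), and ACO1 without 60 h replicate 2 or 80 h replicate 1 or 2 (up to 0.077). CYC1 lost the call without 8 h replicate 2 or 3, 60 h replicate 1 or 2, 80 h replicate 1 or 2 or any 102 h array (adjusted p up to 0.17).

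Peroxisomal beta-oxidation held 3 falls among 16 genes, of which that of POX1, the acyl-CoA oxidase, held. POX1 had 1749, 1744 and 2016 at 80 h, against 2447, 2921 and 2773 at 60 h, a change of -0.56 ± 0.14 (adjusted p = 0.013, replicate 3 value -0.60). On the authors' scale POX1 was not called lower. POT1, the thiolase, stood at -0.57 ± 0.25 (adjusted p = 0.12) and at -0.98 on replicate 3, and FAA2 at -0.34. Of 7 trehalose genes 1 fell and none rose, and of 17 glycogen genes 2 rose and 2 fell. Among all probe sets 9.42% rose and 10.9% fell. TSL1, a regulatory subunit of trehalose synthase, had 2063, 1809 and 2534 at 80 h, against 3307, 3558 and 3286 at 60 h. All 80 h arrays were lower, and it changed by -0.68 ± 0.12 (adjusted p = 0.0021, replicate 3 value -0.64), the only call among 7 trehalose genes. TPS1, the synthase, stood at -0.05. GAC1, a targeting subunit of the phosphatase that activates glycogen synthase, had 2022, 1682 and 1449.9 at 80 h, against 409.5, 753 and 903 at 60 h, a rise of 1.38 ± 0.24 (adjusted p = 0.0021, replicate 3 value 0.91). PGM2, phosphoglucomutase, rose by 0.53 ± 0.13 (adjusted p = 0.015, replicate 3 value 0.30), GLG1, a glycogenin, changed by -0.60 ± 0.18 (adjusted p = 0.031, replicate 3 value -0.55), and GLG2 fell without holding. Neither GLG1 nor GLG2 was called lower on the authors' scale or with array quality weights. GSY1 and GSY2, the glycogen synthases, stood at 0.17 and -0.11. In the pentose phosphate pathway SOL4 and TAL1, transaldolase (-0.56 ± 0.11, adjusted p = 0.0034, replicate 3 value -0.53), fell, SOL3 fell without holding, and RKI1, ribose-5-phosphate isomerase, rose by 0.87 ± 0.10 (adjusted p = 0.00021, replicate 3 value 0.89). GPD2, of glycerol formation, had 152, 130.2 and 108 at 80 h, against 276, 213 and 260.1 at 60 h. It changed by -0.95 ± 0.17 (adjusted p = 0.0021, replicate 3 value -1.02), the only call among 11 glycerol genes, while GPD1, its partner enzyme, stood at -0.19 with all arrays and -0.86 on replicate 3 (adjusted p = 0.00033). AQY1, an aquaporin, and STL1, a glycerol importer, stood at 0.73 ± 0.64 and 0.46 ± 0.26 with overlapping arrays. POX1 lost the call without 60 h replicate 2 or 80 h replicate 1 or 2 (adjusted p up to 0.06), and PGM2 without 80 h replicate 1 or 2 (up to 0.058). GLG1 lost the call without 60 h replicate 1 or any 80 h array (adjusted p up to 0.14).

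Genes of fatty acid synthesis and of anaerobic sterol uptake were mostly higher where they changed. Of 16 genes of fatty acid synthesis 6 rose and 1 fell, with a median of 0.33, and 5 rises held. FAS2, the alpha subunit of fatty acid synthase, had 3789.8, 4399.7 and 4613 at 80 h, against 1856, 2861 and 2872 at 60 h. The groups were apart, and the rise was 0.78 ± 0.15 (adjusted p = 0.0037, replicate 3 value 0.57). ACC1, acetyl-CoA carboxylase, rose by 0.61 ± 0.11 (adjusted p = 0.0024, replicate 3 value 0.49). ELO3, of very long chain fatty acids, rose by 1.09 ± 0.25 (adjusted p = 0.0086, replicate 3 value 1.10), FAA4, an acyl-CoA synthetase, by 1.06 ± 0.26 (adjusted p = 0.012, replicate 3 value 0.81), and TSC13 by 0.57 ± 0.16 (adjusted p = 0.027, replicate 3 value 0.53). OLE1, the oxygen-requiring desaturase, stood at 0.30 ± 0.20 (adjusted p = 0.3). Of 19 genes of anaerobic wall mannoproteins and sterol uptake 6 rose and none fell, with a median of 0.52 against 0.16 on replicate 3, and 5 held. Their median signal was 0.45 lower (log2) on 60 h replicate 1 than on replicate 3. UPC2, the activator of sterol genes, had 398, 428 and 370.2 at 80 h, against 101, 128 and 237 at 60 h. No arrays overlapped, and the rise was 1.45 ± 0.25 (adjusted p = 0.0021, replicate 3 value 0.75). AUS1, a sterol importer, had 484, 536 and 557 at 80 h, against 334, 255 and 239 at 60 h, a rise of 0.94 ± 0.14 (adjusted p = 0.00084, replicate 3 value 1.14). PDR11, its partner, had 471, 445 and 475 at 80 h, against 176, 246 and 264 at 60 h, a rise of 1.04 ± 0.17 (adjusted p = 0.0016, replicate 3 value 0.81), and both genes passed in all 30 alternatives. DAN1, an anaerobic mannoprotein, rose by 1.25 ± 0.32 (adjusted p = 0.016, replicate 3 value 0.75), and SUT1, a regulator of sterol uptake, by 1.06 ± 0.20 (adjusted p = 0.003, replicate 3 value 0.65). PAU5, read by a shared probe set, rose without holding. Without 80 h replicate 2, 3 genes of fatty acid synthesis rose. With array quality weights 4 genes of fatty acid synthesis rose, and 3 of the anaerobic wall and sterol uptake list. FAA4 lost the call without 80 h replicate 2 (adjusted p up to 0.051), and TSC13 without 60 h replicate 1 or 80 h replicate 1 or 2 (up to 0.1). DAN1 lost the call without 80 h replicate 2 or 3 (adjusted p up to 0.058).

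Of 24 genes of ergosterol synthesis 5 rose and none fell, 3 held (ERG3 at 0.37, ERG4 at 0.39 and ERG5 at 0.41), and HMG1 and ERG11 did not. ERG11, lanosterol demethylase, had 9366, 9899 and 9523 at 80 h, against 5924, 7512 and 8274 at 60 h, a change of 0.42 ± 0.12 (adjusted p = 0.031). None of the 24 rose with array quality weights or with centred arrays. The median was -0.09 with centred arrays, against 0.19 here. The count of rises also fell to 0 without 80 h replicate 1 or 2, 1 without 80 h replicate 3, 2 without 60 h replicate 2, and 3 without 8 h replicate 2, 8 h replicate 3 or any 1 of the 102 h arrays. In heme and oxygen control HAP1, the heme activator, rose by 0.92 ± 0.15 (adjusted p = 0.0017, replicate 3 value 0.63), HEM13, an oxygen-requiring step of heme synthesis, by 0.88 ± 0.20 (adjusted p = 0.0093, replicate 3 value 0.87), and ANB1, the hypoxic form of translation factor eIF5A, by 0.61 ± 0.17 (adjusted p = 0.025, replicate 3 value 0.63). HAP2, a DNA-binding subunit of the Hap complex, changed by -0.50 ± 0.16 (adjusted p = 0.043, replicate 3 value -0.64), with overlapping arrays. HAP2 was not called lower on the authors' scale or with array quality weights. ERG3 lost the call without 8 h replicate 2 or 3, 60 h replicate 2 or 3, any 80 h array or any 102 h array (adjusted p up to 0.15), and ERG4 without 8 h replicate 2 or 3, 60 h replicate 2 or 3, 80 h replicate 1 or 2 or any 102 h array (up to 0.15). ERG5 lost the call without any 80 h array (adjusted p up to 0.068), and ERG11 without 60 h replicate 1 or 2 or any 80 h array (up to 0.11). ANB1 lost the call without 60 h replicate 2 or any 80 h array (adjusted p up to 0.099), and HAP2 without 8 h replicate 3, 60 h replicate 2 or 3, any 80 h array or any 102 h array (up to 0.15).

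**Figure D5:**
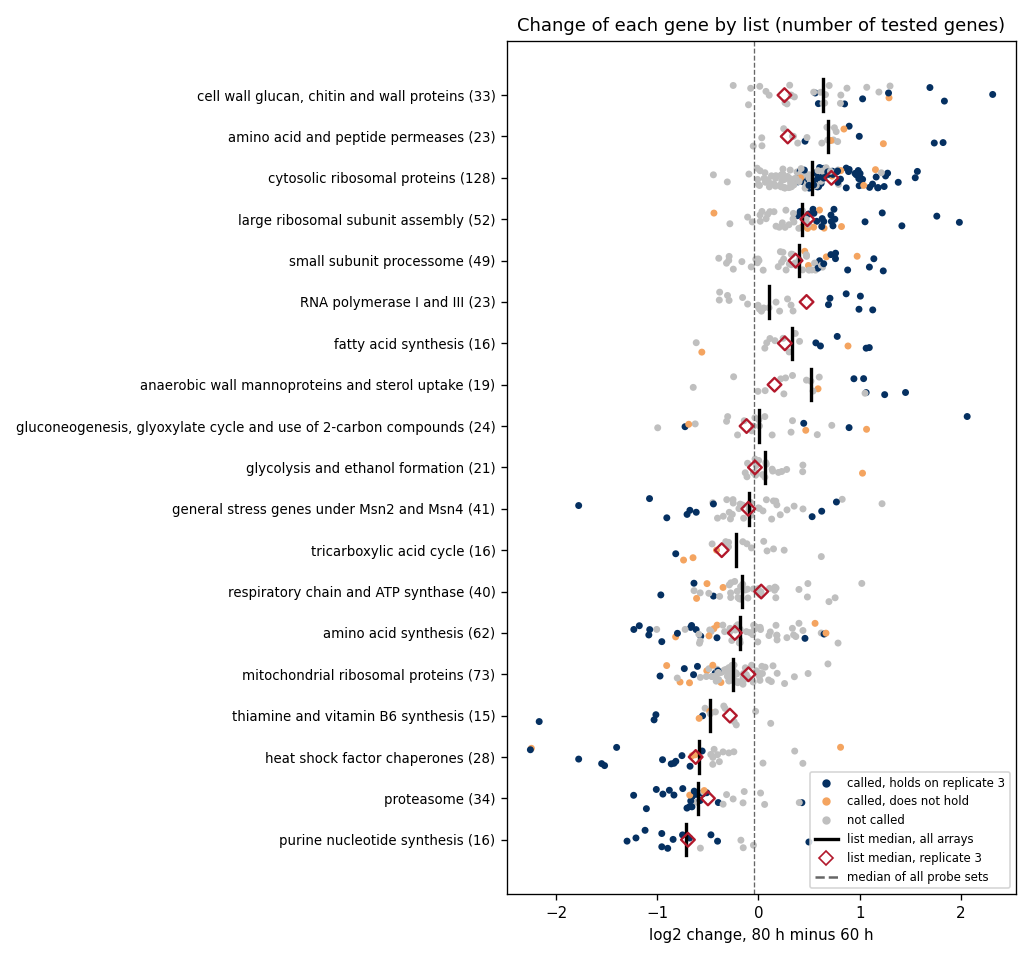
Log2 change of each tested gene in 19 lists, with the number of tested genes, black bars at the list medians with all arrays, open diamonds at the medians of the replicate 3 fit and a dashed line at the median of all probe sets. Purine, proteasome and chaperone genes had medians of -0.72, -0.59 and -0.59, and ribosomal proteins 0.53. For cell wall genes and permeases the diamonds (0.26 and 0.29) lie left of the bars (0.64 and 0.68).

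Other states of the cell changed in few genes. Of 35 genes of mitosis and cytokinesis 2 fell, KIP1 and CLB4, and neither held. The median was -0.09, but 0.24 on the authors' scale, where 3 rose and none fell. CLB2, the main mitotic cyclin, stood at 0.55 ± 0.30 (adjusted p = 0.2). Of 38 genes of G1/S control and replication 3 rose and 3 fell (9 and none on the authors' scale). These shares are below the 9.42% of all probe sets that rose and the 10.9% that fell. Among the rises was CLN3, the first G1 cyclin, with 787, 701 and 709 at 80 h, against 187, 390.0 and 519 at 60 h, a rise of 1.12 ± 0.37 (adjusted p = 0.047, replicate 3 value 0.49). Of 10 histone genes HTB1, of histone H2B, had 2422, 2583 and 2569 at 80 h, against 5217, 4123 and 3818 at 60 h. It fell with a change of -0.78 ± 0.14 (adjusted p = 0.0022, replicate 3 value -0.60), as did the linker histone HHO1 (-0.97 ± 0.16, adjusted p = 0.0014, replicate 3 value -1.04), and HTA1 stood at 0.30. None of 14 mating genes was called by limma, where 0 were higher and 0 lower at an unadjusted p under 0.05. None of 11 vacuolar protease genes was called, where 2 were higher and 0 lower at an unadjusted p under 0.05. None of 9 eisosome genes was called, where 3 were higher and 1 lower at an unadjusted p under 0.05. Of 16 meiotic genes 1, DMC1, fell without holding, while on the authors' scale 1 rose and none fell. Of 33 autophagy genes 4 fell and 1 rose, and 2 falls held, those of ATG31, which averaged 204 at 80 h and 409 at 60 h, and ATG19, which averaged 901 at 80 h and 1682 at 60 h. The share of autophagy genes that fell is near that of all probe sets. The autophagy median was -0.23, but 0.06 on the authors' scale, where 2 fell and 2 rose. Of 4 flocculation genes FLO10, a flocculin, was called, with 19.7, 26.4 and 21.5 at 80 h, against 10.8, 1.03 and 1.47 at 60 h, below background on all 60 h arrays and above it on 1 of the 80 h arrays, so its rise can be given only as at least 1.01-fold. CLN3 lost the call without 8 h replicate 2, any 30 h array, 60 h replicate 1 or 2, any 80 h array or any 102 h array (adjusted p up to 0.15), and FLO10 without 80 h replicate 2 (up to 0.057).

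Signal, aroma and efflux genes added single changes. Of 18 genes of Ras, protein kinase A, Rim15 and Sch9, 6 rose and 1 fell, with 4 rises and the fall held. MSN4, a stress activator that the kinase restrains, had 942, 953 and 866 at 80 h, against 218, 452 and 474 at 60 h, a rise of 1.35 ± 0.31 (adjusted p = 0.0097, replicate 3 value 0.96). RIM15, a kinase of entry into quiescence, rose by 0.85 ± 0.23 (adjusted p = 0.023, replicate 3 value 0.72), CYR1, adenylate cyclase, by 0.69 ± 0.14 (adjusted p = 0.0048, replicate 3 value 0.38), and IRA1, which inactivates Ras, by 0.53 ± 0.12 (adjusted p = 0.0079, replicate 3 value 0.62), while YAK1, a kinase opposed to growth, changed by -0.39 ± 0.12 (adjusted p = 0.034, replicate 3 value -0.45). YAK1 was not called lower on the authors' scale or with array quality weights. Without 60 h replicate 2, 80 h replicate 2 or 80 h replicate 3, 3 genes of this list rose, and with array quality weights 2 did. Of 17 aroma genes IAH1, which hydrolyses acetate esters, had 240.1, 233 and 245 at 80 h, against 475, 539.7 and 473 at 60 h. It fell in all 30 alternatives, with a change of -1.05 ± 0.13 (adjusted p = 0.00027, replicate 3 value -0.98). ARO9, an aminotransferase of aromatic amino acids, changed by -0.80 ± 0.16 (adjusted p = 0.0053, replicate 3 value -0.72), and ATF1, which forms acetate esters, stood at 0.35 ± 0.13 (adjusted p = 0.075). The aroma list had 1 rise and 3 falls with a median of -0.04, but 2 rises and 1 fall with a median of 0.21 on the authors' scale. Of all probe sets 9.42% rose and 10.9% fell, to be set beside the counts of each list in this paragraph. PDR5, a multidrug efflux pump, had 2152, 2316 and 2539 at 80 h, against 635, 1033 and 1417 at 60 h, a rise of 1.26 ± 0.23 (adjusted p = 0.0024, replicate 3 value 0.72), and TPO1, a polyamine exporter, rose by 0.99 ± 0.32 (adjusted p = 0.046, replicate 3 value 0.44). In all 4 of 17 efflux genes rose and 1, the regulator PDR1, fell without holding. Without single arrays the rises in efflux genes numbered 2 (60 h replicate 1 or 2, 80 h replicate 2 or 3), 1 (80 h replicate 1) or 7 (60 h replicate 3). With array quality weights 1 efflux gene rose. RIM15 lost the call without 60 h replicate 2 or 80 h replicate 2 or 3 (adjusted p up to 0.095), and YAK1 without 60 h replicate 1 or 3, any 80 h array or 102 h replicate 2 (up to 0.14). TPO1 lost the call without any 30 h array, 60 h replicate 1 or 2, any 80 h array or any 102 h array (adjusted p up to 0.14).

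Among the largest changes that did not hold, the rises of YPK2 and SRO9 were uneven over the 60 h arrays. YPK2, a kinase that acts downstream of TORC2, had 490.0, 504 and 382 at 80 h, against 19.5, 21.0 and 389 at 60 h. Replicate 3 of 60 h lay within the 80 h arrays, and the change was 3.07 ± 1.02 (adjusted p = 0.049) with all arrays and 0.23 on replicate 3. HAC1, the transcription factor of the unfolded protein response, was not called at 3.92 ± 1.42 (adjusted p = 0.066), with 1056, 752 and 840.5 at 80 h, against 9.32, 26.0 and 795 at 60 h. It too lay within the 80 h arrays on replicate 3 (0.14). YBL111C, a subtelomeric frame read by a shared probe set, changed by 2.66 ± 0.72 (adjusted p = 0.021, replicate 3 value 0.55). ADA2, a subunit of SAGA acetyltransferase, changed by 2.35 ± 0.71 (adjusted p = 0.033, replicate 3 value 1.38), with replicate 3 still below every 80 h array. SRO9, an RNA-binding protein, was below background on all 60 h arrays and above it on all 80 h arrays, with 72.7, 55.0 and 65.7 at 80 h, against 2.05, 3.3 and 21.7 at 60 h, so its rise is at least 2.9-fold (adjusted p = 0.0048, and 0.084 on replicate 3). Among falls that did not hold, SSA2 is given above, and the dim frames YFR035C and YEL023C and the sporulation gene SPO21 changed by -1.64 ± 0.51 (adjusted p = 0.038, replicate 3 value -1.14), by -0.99 ± 0.24 (adjusted p = 0.012, replicate 3 value -0.72), and by -0.99 ± 0.32 (adjusted p = 0.047, replicate 3 value -0.55). Their replicate 3 values had the same sign as those of all arrays. YPK2 lost the call without 8 h replicate 2 or 3, any 30 h array, 60 h replicate 1 or 2, any 80 h array or any 102 h array (adjusted p up to 0.17), and YBL111C without 60 h replicate 1 or 2 or 80 h replicate 1 or 2 (up to 0.091). ADA2 lost the call without 60 h replicate 1 or 2 or 80 h replicate 2 or 3 (adjusted p up to 0.13), and YFR035C without 60 h replicate 1 or 2 or 80 h replicate 1 or 3 (up to 0.13). SPO21 lost the call without 8 h replicate 2 or 3, any 30 h array, 60 h replicate 1 or 2, 80 h replicate 1 or 3 or any 102 h array (adjusted p up to 0.17). YPK2 stood at 2.33 without 60 h replicate 1 and 4.49 without 60 h replicate 3, YBL111C stood at 2.04 without 60 h replicate 2 and 3.71 without 60 h replicate 3.

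Some genes were called in the replicate 3 fit alone, 258 higher and 236 lower. FMP45, a membrane protein of the SUR7 family, had 725, 806 and 1119 at 80 h, against 77.5, 331 and 2014 at 60 h. It stood at 1.22 ± 0.99 with all arrays (adjusted p = 0.4) and at -1.21 on replicate 3 (adjusted p = 0.0014), where the 80 h arrays were lower. ZWF1, glucose-6-phosphate dehydrogenase, had 2035, 1856 and 2011 at 80 h, against 564, 2237 and 3005 at 60 h, and stood at 0.33 and -0.61. For these genes 60 h replicate 1 was below the 80 h arrays and replicate 3 above them. Replicates 1 and 2 share the low 5′ signal and replicate 3 is a single array, so 5′ signal and sample cannot be told apart at 60 h.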

How the data were processed

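The authors deposited 1 signal intensity per probe set and array, made from scanned Affymetrix arrays with GCOS 5.0, per the submitters' processing notes, and their scaling target is not known here. Array medians over all probe sets were 30.9, 31.9 and 27.6 at 80 h and 22.6, 25.4 and 27.4 at 60 h, and spanned 0.777 on the log2 scale over the 14 arrays, so all 10928 probe sets were quantile normalized, floored at 5.58 and put on a log2 scale, and 5498 of them, those of S. cerevisiae, were kept. Printed signals are normalized values before the floor. Background was set at 22.1, the 95th percentile of probe sets below the median signal, and the 5338 probe sets above it on 2 or more arrays of any time were tested. Genes were named through the array's annotation and a gene table of assembly R64 that served only for names, and 110 tested probe sets are shared by several genes.

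Each probe set was fitted with limma 3.58.1 in R 4.3.3 with a mean per time over all 14 arrays and an intensity trend, and Benjamini-Hochberg adjusted p-values were taken over all tested probe sets at a threshold of 0.05. The number of arrays limits the precision, and a probe set below background on all arrays of a time has only a bound there. The scripts were tested on simulated data. Named genes are the 14 largest rises and 14 largest falls that passed, did not overlap and held on 60 h replicate 3, the 4 largest of each direction that did not hold, up to 4 members of each list with the largest change, any member of a list of up to 24 genes, and a set of genes of brewing interest. The comparison, its gene lists and its named genes were chosen with earlier results of these data known. Alternatives changed the scale, the floor, the filter, the fit, the arrays used and the replicate block.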

Additional observations from a re-analysis of the deposited data

How the results depend on the processing

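The number of probe sets higher at 80 h was 1124 on the authors' scale, 224 with array quality weights, 276 with the 80 h and 60 h arrays alone, 197 at an adjusted p under 0.01 and 250 without the 60 h arrays of low 5′ signal only, and lay between 233 and 724 when each array was left out in turn. The number lower was 176, 205, 309, 257 and 243 under the same settings in that order, and lay between 314 and 817 when each array was left out. The lowest counts came without 80 h replicate 2 (233 and 314) and the highest without 60 h replicate 3 (724 and 817). Calls that hold on replicate 3 numbered 675 higher and 91 lower on the authors' scale. On the quantile normalized scale, 492 of the higher and 581 of the lower calls had replicate 3 on the called side of all 80 h arrays when no test of replicate 3 was asked for. Replicate 3 was itself among the arrays that gave those calls. Replicate numbers did not pair the samples, with correlations of deviations from the group means of -0.136, 0.012 and -0.130, and a replicate block gave 587 higher and 664 lower, 495 and 565 of them shared with the fit without it. Among named genes, 16342 values under other settings kept their side of the threshold, 1147 lost the call and 303 gained it. A further 26 turned sign where a call was involved. Turns of sign between values that were not called are not among the 26. An example is GLK1, at 0.44 with all arrays and -0.13 on replicate 3. Without the 3 arrays of low 5′ signal, PDC6 turned to -0.59, MDH1 to -0.49, SDH1 to -0.63, PIG1 to 1.12 (also 1.12 without the 60 h arrays alone), APE4 to -0.40, PUT4 to -0.64, AGP1 to -0.51, ZWF1 to -0.61, TKL1 to -0.46, FMP45 to -1.21 and SOD2 to -0.42. With a covariate for the 5′ to 3′ ratio, PGK1 turned to -0.37, SDH1 to -0.63, IDH1 to -0.48, TES1 to -0.65, HEM1 to -0.51, HEM15 to -0.44, FRS2 to -0.54, PRB1 to -0.37, APE4 to -0.41, PUT4 to -0.68, ZWF1 to -0.74, TKL1 to -0.56 and SOD2 to -0.48, and with centred arrays ERG11 turned to -0.035. The cause of these moves was not tested. A block for chip lot or scan was not run, as the array information files used here give neither. Dim probe sets limit what can be read at low signal.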
